A study of Mus musculus with 18 samples.

Results

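Ran is the small GTPase that gives transport through nuclear pores its direction, and the transcripts of the Ran cycle, and of the carriers it loads and unloads, were followed while mouse erythroid cells matured. The genes were chosen by symbol: Ran, Rcc1, Ranbp1, Rangap1, Rangrf, Kpna2, Kpnb1, Xpo1, Cse1l and Nutf2. Of these 10 genes, 9 had a probe set on the array, and Nutf2, which carries Ran back into the nucleus, was not analysed here. The 9 were read by 12 probe sets out of 12422 tested, and they stood among 8251 genes with a probe set of their own.

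The cells were G1E-ER4, a subclone of an erythroid line grown from embryonic stem cells whose Gata1 gene had been disrupted. The subclone carries Gata-1-ER, a fusion of Gata-1 to the estradiol-binding domain, and all 6 groups carried it. The groups were untreated cells (0 h) and cells at 3, 7, 14, 21 and 30 h of estradiol, each with 3 biological replicates lettered A, B and C, on 18 Affymetrix MG-U74Av2 arrays. The labels call this span late BFU-E to orthochromatic erythroblast. The line is 1 subclone, the untreated cells were sampled only at 0 h, and no treated cells without the fusion were analysed here, and the estradiol dose was not given in the sources used here, so estradiol, time in culture and Gata-1 activity cannot be told apart.

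In the nucleus Ran is bound to GTP, because its exchange factor Rcc1 sits on chromatin. In the cytoplasm Rangap1, helped by Ranbp1, makes Ran hydrolyse its GTP. Importins release their cargo when they meet nuclear Ran-GTP, and exportins pick theirs up with it. In dividing cells the same Ran-GTP around chromatin guides spindle assembly, and in red cell precursors the nucleus condenses and is finally expelled.

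The deposited values were signal intensities on a linear scale. The array medians lay between 38.2 and 50.9, and the first quartiles between 9.5 and 14.5, which gives a scale for dim signals. The 9 measured of 12 erythroid markers summed to between 9920 and 12665 at 0 h and to between 53558 and 65621 at 30 h. The largest signals at 30 h were those of Hba-a1 (6061 to 26549), Alas2 (108 to 12476) and Hbb-b2 (1435 to 10904). Slc4a1 (66.7 to 3652, adjusted p = 1.37e-09), Klf1 (1303 to 2748, adjusted p = 3.25e-06) and Gata1 (209 to 501, adjusted p = 6.76e-05) were also called higher at 30 h. Which Gata1 transcript was read was not tested. Epb42 stayed at 22.7 and 19.9. Tfrc was called higher at 21 h (3412; 1.28, adjusted p = 0.00508) and not called at 30 h (1240 to 2359, adjusted p = 0.11). Epor was lower at 3 h (−0.67, adjusted p = 0.00298) and not called at 30 h (584 to 574, adjusted p = 0.944). Summed signals of 6 progenitor markers ran from 7253 to 7508 at 0 h and from 416 to 547 at 30 h. The sum was carried by Lyl1 (3506 to 59.1), Gata2 (1909 to 112) and Myb (1346 to 7.47), while Spi1 of the same list was higher at 30 h (157 to 263; 0.81, adjusted p = 0.00939) and Cd34 was dim throughout (16.8 and 15.4). The 4 measured of 6 megakaryocyte markers had sums from 71 to 77.1 before treatment, from 140.4 to 222 by 14 h, from 140.6 to 161 by 21 h and from 84.5 to 99.3 by 30 h, with Gp9 higher at 14 h (30.8 to 118; 1.46, adjusted p = 0.000571) and at 21 h (99.3; 1.34, adjusted p = 0.000665). The summed signals of 6 mast cell markers lay between 69.2 and 245 on all arrays, of 7 macrophage and neutrophil markers between 187 and 422, and of 6 fibroblast and stromal markers between 461 and 1070, much of the last from Col1a2 (430 at 0 h, 629 at 30 h). Their part in the results below was not tested. In these bulk samples fewer cells of a type and less RNA per cell cannot be told apart.

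All 9 measured genes were called lower at 30 h than at 0 h, with falls from 1.07 to 3.08 on the log2 scale. Called higher were 0 of 9 (12.8% of all probe sets). In the limma test, adjusted by Benjamini-Hochberg over all probe sets (threshold 0.05), 13.8% of all probe sets were called lower at 30 h, and the median change was −2.22 over the 9 genes against 0.05 over all probe sets. Rcc1 was at or below 50% of its untreated mean by 7 h, Rangrf and Kpnb1 by 14 h, Ran and Ranbp1 by 21 h, and Rangap1, Kpna2, Xpo1 and Cse1l by 30 h. Some of these lay close to the 50% mark: Kpnb1 stood at 49.6% and Ranbp1 at 50.2% by 14 h, and Xpo1 at 50.2% by 21 h. The differences in timing between genes were not tested. Log2 changes are of the value plus 16, which understates the changes of dim genes, and errors are standard errors (SE) of the fit.

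**Figure D1:**
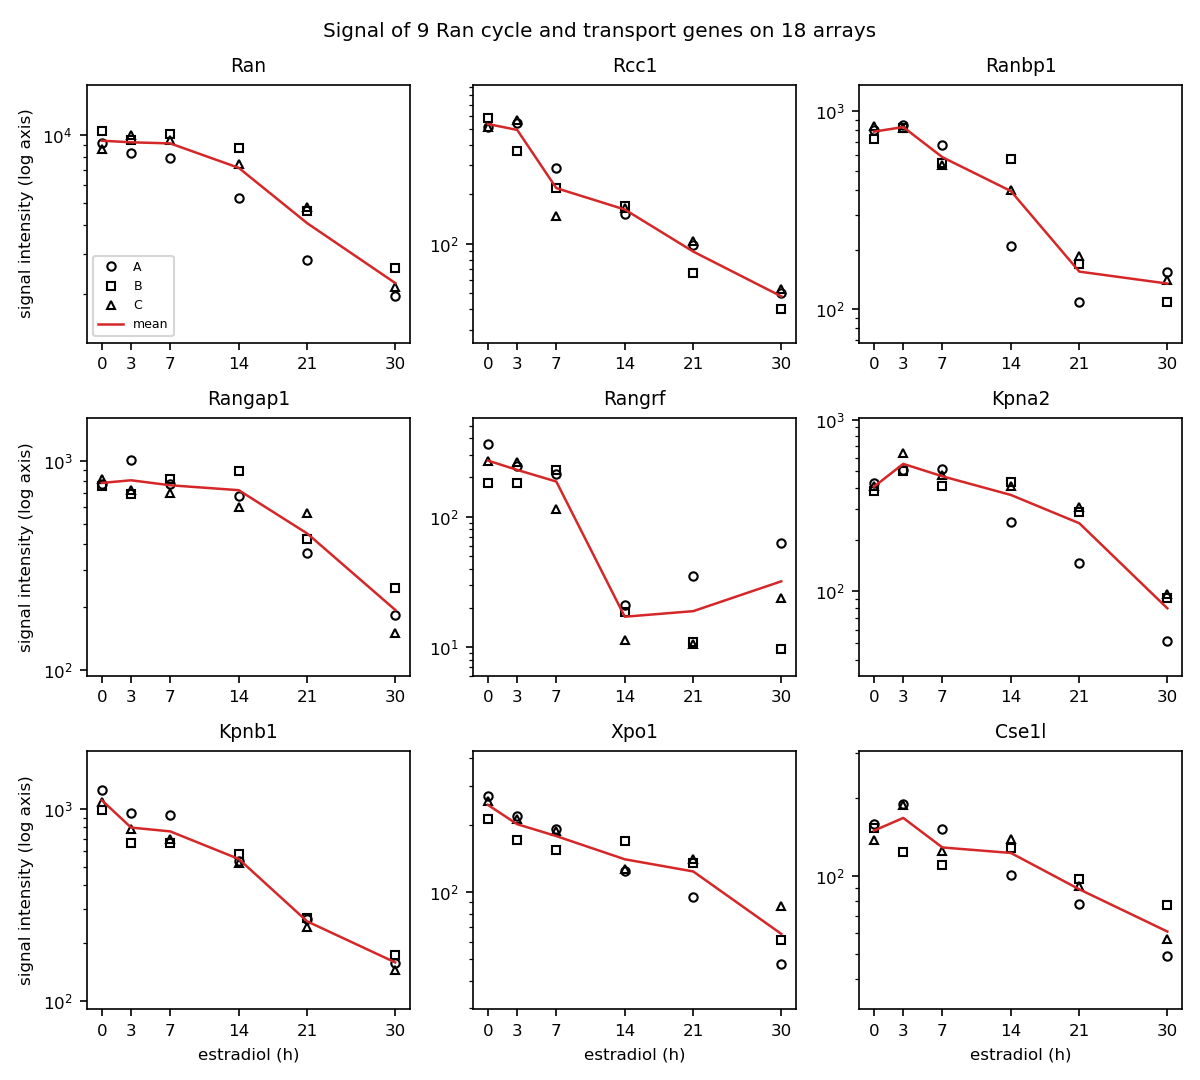
Signal intensity (log axis, each panel with its own range) against hours of estradiol for the 9 genes, with replicates A, B and C as points and their mean as a line. Rcc1 drops between 3 and 7 h and Rangrf between 7 and 14 h, while Ran, Rangap1 and Kpna2 have no called change up to 14 h and are lower by 30 h.

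Sequence of the DNA just before the start is shown for 4 of these genes, those with a match to CACGTG or TTTGAA, motifs explained below. They passed 50% of their untreated means by 7 h (Rcc1), 21 h (Ranbp1 and Ran) and 30 h (Kpna2). Rangrf and Kpnb1, which passed it by 14 h, are not shown. The sequences are the 250 bases before the RefSeq start on GRCm38.p6, 5′ to 3′ on the gene's own strand. Capitals mark the motifs found among the 4 searched on both strands, CACGTG (the E-box of Myc and its relatives), GATAA (the core that Gata factors read), CCAAT (read by NF-Y) and TTTGAA (a cell cycle element).

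Rcc1 (chr4:132345751-132346000, minus strand): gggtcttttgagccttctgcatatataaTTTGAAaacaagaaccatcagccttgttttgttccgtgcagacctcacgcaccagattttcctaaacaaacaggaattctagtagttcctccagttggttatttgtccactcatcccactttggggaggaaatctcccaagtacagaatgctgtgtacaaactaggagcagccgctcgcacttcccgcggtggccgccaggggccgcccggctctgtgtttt
Ran (chr5:129019906-129020155, plus strand): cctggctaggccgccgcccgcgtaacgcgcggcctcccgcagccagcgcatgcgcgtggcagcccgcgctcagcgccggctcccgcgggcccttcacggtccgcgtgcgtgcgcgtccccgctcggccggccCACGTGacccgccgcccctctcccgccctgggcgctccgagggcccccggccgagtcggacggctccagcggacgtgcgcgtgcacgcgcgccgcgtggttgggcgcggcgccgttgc
Ranbp1 (chr16:18248695-18248944, minus strand): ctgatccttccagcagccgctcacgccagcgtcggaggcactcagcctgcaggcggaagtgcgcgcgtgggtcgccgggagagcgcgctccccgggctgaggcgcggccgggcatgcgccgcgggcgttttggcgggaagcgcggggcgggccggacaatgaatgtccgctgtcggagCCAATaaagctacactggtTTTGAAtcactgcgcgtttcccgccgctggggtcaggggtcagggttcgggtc
Kpna2 (chr11:106999526-106999775, minus strand): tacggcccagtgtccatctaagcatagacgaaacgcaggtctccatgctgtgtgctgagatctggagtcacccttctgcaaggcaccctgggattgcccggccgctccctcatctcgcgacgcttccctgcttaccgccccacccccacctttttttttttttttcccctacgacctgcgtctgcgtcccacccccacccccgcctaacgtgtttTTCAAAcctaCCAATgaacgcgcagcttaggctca

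The RefSeq table held such a window for 8 of the 9 measured genes (all but Cse1l). For Rangap1, Rangrf and Xpo1 the start used lies inside the gene's span and not at its outer end. Which start the cells used was not tested. CACGTG lay in 1 of the 8, that of Ran, 118 bases before the start, and in 6.05% of the 27025 promoters of all genes. CCAAT lay in 5 of 8 (Kpna2, Kpnb1, Ranbp1, Rangrf and Xpo1; 34.5% of all promoters), and Kpnb1 held 3 copies. TTTGAA lay in 3 of 8 (Kpna2, Ranbp1 and Rcc1; 16.3% of all). In Ranbp1 and Kpna2 a CCAAT and a TTTGAA stood close together, at −72 and −53 in Ranbp1 and, with the second on the opposite strand, at −25 and −35 in Kpna2. How many of all promoters hold such a pair, or 3 copies of CCAAT, was not counted, so neither can be called particular to these genes. No matches overlapped. GATAA was in 0 of 8 windows (23% of all), which says only that these letters are not in these bases. The matches are descriptions of letters and show no binding.

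Ran itself held its signal for the first 7 h. Untreated arrays read 9217, 10379 and 8650, those of 3 h 8343, 9466 and 9985, those of 7 h 7913, 10091 and 9481, and those of 14 h 5256, 8765 and 7461. The 21 h arrays read 2830, 4638 and 4816 and the last ones 1961, 2607 and 2147. Arrays up to 14 h overlapped those of 0 h, while every array of the last 2 times lay below all untreated ones. The log2 change reached −0.43 by 14 h (SE 0.18, adjusted p = 0.145), −1.39 by 21 h (SE 0.18, adjusted p = 8.97e-06) and −2.22 by 30 h (SE 0.18, adjusted p = 1.31e-08), which left a mean of 23.8% of the untreated signal. A second probe set carries the symbols of both Ran and Rasl2-9, a near-identical copy of Ran, and was left out of all counts. It went from 6040 ± 218 (SD, n = 3) in untreated cells to 1196 ± 35.8 (SD, n = 3) after 30 h.

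Rcc1, the exchange factor that charges Ran with GTP, was the first to pass 50% of its untreated mean and had the most negative change of the 9 after 30 h, though differences between genes were not tested. The 0 h arrays read 512, 580.1 and 510.1, those of 3 h 541, 367 and 568, and those of 7 h 289, 218 and 147. Then came 151, 169 and 165 for 14 h, 98.6, 66.2 and 104.5 for 21 h, and 50.4, 40.2 and 53.4 for 30 h. From 7 h on, every array lay below every untreated array, and the 7 h arrays lay below the 3 h arrays as well. The log2 change was −1.29 by 7 h (SE 0.21, adjusted p = 0.000758), −1.62 by 14 h, −2.33 by 21 h and −3.08 by 30 h (SE 0.21, adjusted p = 1.17e-09). Only 0.282% of all probe sets had a more negative change by 7 h, and 0.499% by 30 h. The step from 3 h to 7 h alone was −1.14 (SE 0.21, adjusted p = 0.00983). That step missed the threshold without 3 h A (−1.06, adjusted p = 0.062), without 3 h C (−1.02, adjusted p = 0.0777) and without 7 h C (−0.90, adjusted p = 0.0539).

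Rangap1, the activator that makes Ran spend its GTP in the cytoplasm, kept its signal for much longer. Its mean was 784 ± 33.1 (SD, n = 3) in untreated cells, 807 ± 172 by 3 h, 764 ± 60.8 by 7 h and 724 ± 152 by 14 h, and none of these times was called against 0 h. The 21 h arrays read 362, 421 and 565 (−0.81, SE 0.19, adjusted p = 0.00359) and the 30 h arrays 184, 247 and 149.8 (−1.91, SE 0.19, adjusted p = 1.84e-07). Both late times lay below all of the untreated arrays. Its other probe set, of a kind that can read related transcripts, went from 464 ± 106 to 107 ± 38.0 after 30 h (−1.92, SE 0.27, adjusted p = 1.59e-05) and was not called by 21 h (−0.66, adjusted p = 0.102).

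Ranbp1, which helps Rangap1 by pulling Ran-GTP off exported complexes, had a broad decline between 7 and 21 h. The 0 h arrays read 801, 724 and 836, those of 3 h 850.2, 822 and 818, and those of 7 h 674, 546 and 534. By 14 h they were spread widely, with 208, 575 and 402, and later narrowed to 109, 169 and 187 for 21 h and to 154, 109 and 141 for 30 h. Every array from 7 h on lay below the untreated ones, but 7 h was not called (−0.43, SE 0.26, adjusted p = 0.537). The log2 change was −1.08 by 14 h (SE 0.26, adjusted p = 0.00689), −2.24 by 21 h (SE 0.26, adjusted p = 2.01e-06) and −2.36 by 30 h (SE 0.26, adjusted p = 6.54e-07). From 21 h to 30 h the difference was −0.11 (SE 0.26, adjusted p = 0.895), and the arrays overlapped. The step from 14 h to 21 h (−1.16, adjusted p = 0.0196) missed the threshold in fits without 14 h B (−0.84, adjusted p = 0.109), without 14 h C (−1.09, adjusted p = 0.0969) or lacking 21 h A (−0.92, adjusted p = 0.112). Without 14 h B the step from 7 h to 14 h was called instead (−0.97, adjusted p = 0.0479). The probe set is of a kind that breaks a design rule of the array.

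Rangrf, the Mog1 protein that binds Ran and releases its nucleotide, had its only called step between neighbouring times from 7 h to 14 h. Before treatment the arrays read 359.5, 181 and 269, those of 3 h 244, 181 and 262, and those of 7 h 214, 230 and 114.5, and these 3 times overlapped. The mean by 7 h was 69.0% of the untreated signal, a change that was not called (−0.50, SE 0.36, adjusted p = 0.636). The 14 h arrays read 21.1, 18.7 and 11.4, those of 21 h 35, 11 and 10.5, and those of 30 h 62.5, 9.6 and 23.6. The arrays of 14 h lay below all of 7 h (−2.58, SE 0.36, adjusted p = 0.000448) and below all of 0 h (−3.08, SE 0.36, adjusted p = 5.29e-06), with a mean of 6.33% of the untreated signal. From 14 h on only 30 h A exceeded the array medians, and the later steps were 0.04 (adjusted p = 0.985) and 0.39 (adjusted p = 0.667). With a constant of 1 in place of 16 the change by 14 h was −3.93.

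**Figure D2:**
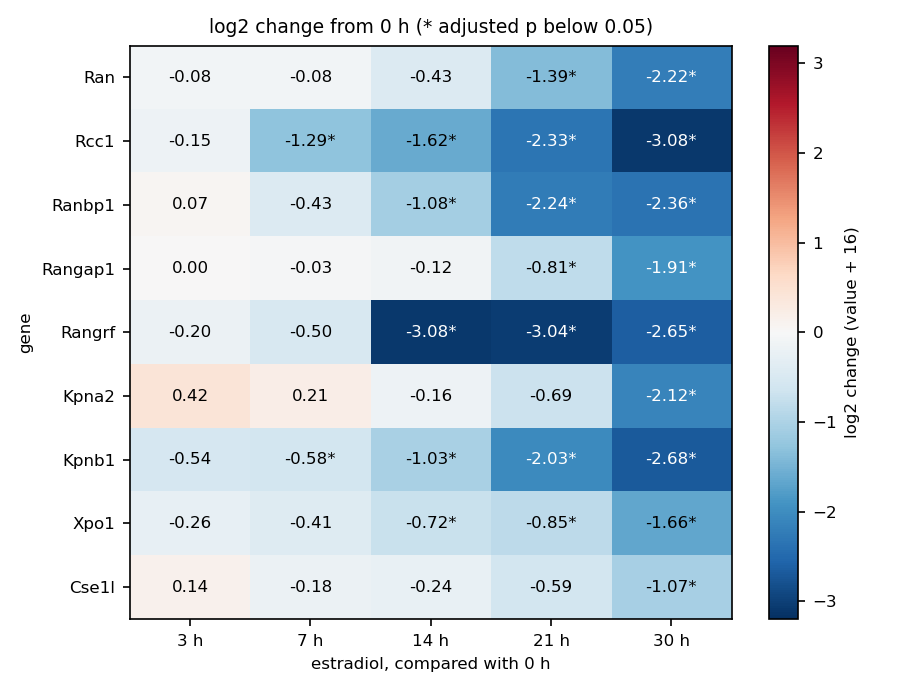
Log2 change from 0 h (value plus 16) for the 9 genes at each estradiol time, with the value printed in each cell and an asterisk where the adjusted p was below 0.05. At 3 h 0 genes carry an asterisk, at 7 h Rcc1 and Kpnb1 do, and at 30 h all 9 do.

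Among the carriers, importin beta was called lower from 7 h on by its brighter probe set. Kpnb1, importin beta, takes cargo through the pore and is parted from it by Ran-GTP. The 0 h arrays read 1246, 989.7 and 1084, those of 3 h 948, 665 and 782, and those of 7 h 933, 661 and 693. Then came 537, 585 and 524 for 14 h, 268, 270.1 and 242 for 21 h, and 158, 174 and 146 for 30 h. All arrays from 3 h on lay below the untreated ones. The log2 change was −0.54 by 3 h (SE 0.16, adjusted p = 0.137), −0.58 by 7 h (SE 0.16, adjusted p = 0.0407), −1.03 by 14 h, −2.03 by 21 h and −2.68 by 30 h (SE 0.16, adjusted p = 1.58e-10). The 7 h call did not survive the loss of 0 h A, B or C, 3 h C, 7 h B, 7 h C, 21 h B or 30 h A (changes from −0.67 to −0.47, adjusted p from 0.0505 to 0.196).

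The other Kpnb1 probe set went the opposite way with low signals. Its 0 h arrays read 6.1, 16.6 and 6.8, those of 14 h 68.1, 34.1 and 51.6, and those of 30 h 66.3, 28.7 and 19.5. It was called higher by 14 h (1.35, SE 0.33, adjusted p = 0.00847), by 21 h (1.29, adjusted p = 0.00712) and by 30 h (1.01, adjusted p = 0.0276). Which Kpnb1 transcript each probe set reads was not tested. With the mean of both probe sets, the Kpnb1 change was 0.012 by 7 h, 0.16 by 14 h and −0.37 by 21 h (adjusted p = 0.212), so its direction at 7 and 14 h rests on the brighter probe set, while by 30 h it was −0.83 (adjusted p = 0.00254).

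**Figure D3:**
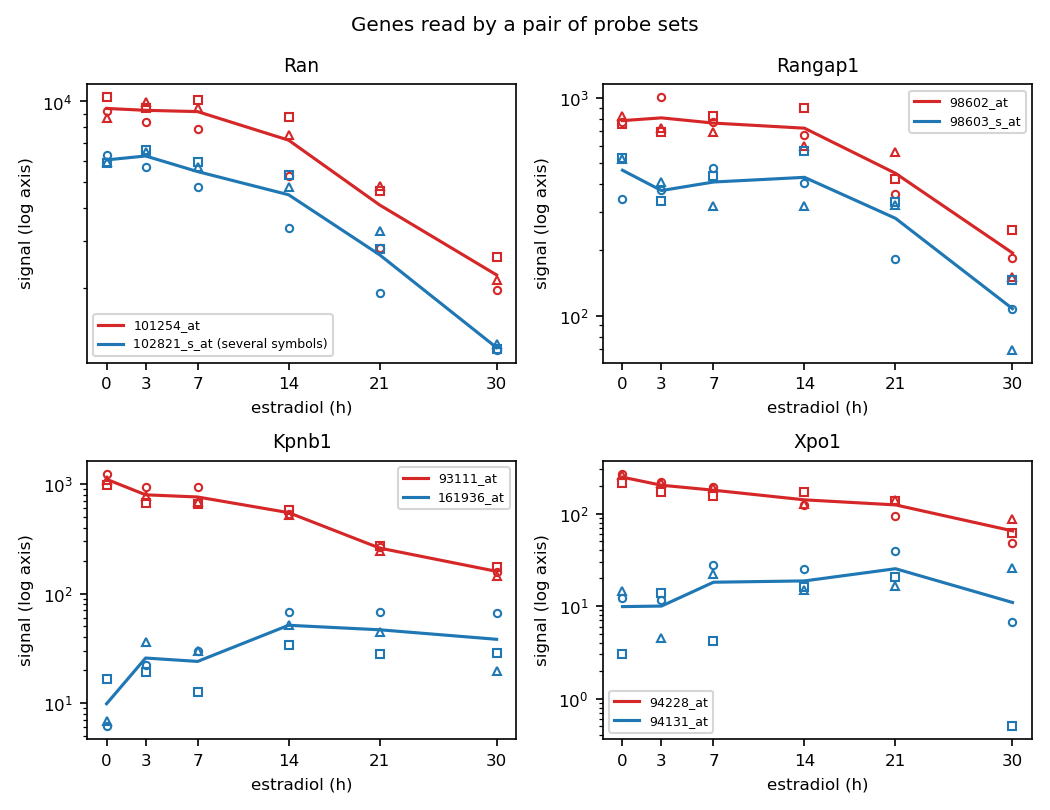
Signal (log axis) against hours of estradiol for the 4 genes read by a pair of probe sets, with circles, squares and triangles for replicates A, B and C and lines for the means. The pairs for Ran and Rangap1 fall together, whereas the dim second probe set of Kpnb1 rises from 9.83 at 0 h to 38.2 at 30 h and that of Xpo1 lies between 0.5 and 39 on all arrays.

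Kpna2, an importin alpha that holds the classical nuclear localisation signal of the cargo, did not fall until late. The 0 h arrays read 428, 381.5 and 409.9 and those of 3 h 512, 504 and 640.3, all 3 above the untreated ones, but the difference was not called (0.42, SE 0.26, adjusted p = 0.792). Those of 7 h read 515, 411.5 and 476, those of 14 h 252, 432 and 409, and those of 21 h 147, 289 and 311 (−0.69, SE 0.26, adjusted p = 0.0711). The last of these was called without 21 h C (−0.89, adjusted p = 0.0319) and without 30 h A (−0.69, adjusted p = 0.046). The 30 h arrays read 51.6, 91.5 and 96.2, below every earlier array (−2.12, SE 0.26, adjusted p = 2.76e-06). From 21 h to 30 h alone it fell by 1.43 (SE 0.26, adjusted p = 0.00216).

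Cse1l, the exportin that returns importin alpha to the cytoplasm, had the smallest change of the 9 after 30 h. Untreated signals were 158.5, 153 and 138, those of 3 h 191, 124 and 189, those of 7 h 152, 110.1 and 125, and those of 14 h 101, 128 and 139. Then came 77.8, 97 and 91.5 for 21 h and 48.7, 77 and 56.9 for 30 h, and both late times lay below all untreated arrays. The difference was −0.59 by 21 h (SE 0.22, adjusted p = 0.0646; without 30 h B −0.59, adjusted p = 0.0463). By 30 h it was −1.07 (SE 0.22, adjusted p = 0.00073), with a mean of 40.6% of the untreated signal.

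Xpo1, the exportin for cargo with leucine-rich export signals, was called lower from 14 h on, and among its neighbouring steps the one from 21 h to 30 h was called. The 0 h arrays read 269.9, 213 and 258, those of 3 h 221, 172 and 214, those of 7 h 193, 155 and 188, and those of 14 h 124, 171 and 127. Then came 95.1, 135 and 141.5 for 21 h and 47.7, 60.9 and 86.3 for 30 h, and no array from 7 h on reached the lowest untreated one. The log2 change was −0.72 by 14 h (SE 0.21, adjusted p = 0.0277), −0.85 by 21 h (SE 0.21, adjusted p = 0.00619) and −1.66 by 30 h (SE 0.21, adjusted p = 4.49e-06). The 14 h call did not survive the loss of 0 h A (−0.66, adjusted p = 0.102), of 0 h C (−0.68, adjusted p = 0.0908), of 14 h A (−0.61, adjusted p = 0.125) and of 14 h C (−0.69, adjusted p = 0.0816). The other Xpo1 probe set was dim, between 0.5 and 39, and was not called by 30 h (−0.07, adjusted p = 0.922). With the mean of both, the change was −0.16 by 14 h (adjusted p = 0.764) and −0.09 by 21 h (adjusted p = 0.862).

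Counted over time against 0 h, the limma test called 0 of 9 genes by 3 h, either lower (0.306% of all probe sets) or higher (0.757%), and 1 gene, Kpnb1, had an unadjusted p below 0.05 there (8.34% of all probe sets). Lower were 2 genes by 7 h (1.69% of all called lower), 5 by 14 h (6.77%), 7 by 21 h (10.9%) and 9 by 30 h (13.8%). None of the 9 was called higher by 7 h (2.48% of all), 14 h (6.55%), 21 h (9.75%) or 30 h (12.8%). The 5 genes of 14 h were Rcc1, Ranbp1, Rangrf, Kpnb1 and Xpo1, and Ran and Rangap1 were added by 21 h. These comparisons share the 0 h arrays. The arrays of the later time all lay below those of 0 h in 1 of 9 genes by 3 h (Kpnb1; 8.85% of all probe sets), 4 by 7 h (9.87%), 5 by 14 h (13.8%), 9 by 21 h (17.3%) and 9 by 30 h (18.6%). The F test over the 6 times called all 9 genes (27.2% of all probe sets), with adjusted p from 6.08e-10 for Kpnb1 to 0.00191 for Cse1l.

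Between neighbouring times, 1 gene was called lower from 3 h to 7 h (Rcc1; 0.33% of all probe sets lower) and 1 from 7 h to 14 h (Rangrf; 1.07%). From 14 h to 21 h 3 genes fell (1.38%): Ran by 0.96 (SE 0.18, adjusted p = 0.00687), Ranbp1 by 1.16 and Kpnb1 by 0.99 (SE 0.16, adjusted p = 0.00165). From 21 h to 30 h 6 genes fell (3.12%): Ran by 0.83 (SE 0.18, adjusted p = 0.00961), Rangap1 by 1.10 (SE 0.19, adjusted p = 0.00125), Kpna2, Kpnb1 by 0.65 (SE 0.16, adjusted p = 0.0187), Xpo1 by 0.81 (SE 0.21, adjusted p = 0.0298) and Rcc1 by 0.75 (SE 0.21, adjusted p = 0.0458). None was called higher in these 4 steps (0.733%, 1.26%, 0.942% and 1.87% of all probe sets). The later arrays all lay below the earlier ones in 2 genes from 3 h to 7 h (7.83%), 2 from 7 h to 14 h (7.74%), 6 from 14 h to 21 h (8.92%) and 7 from 21 h to 30 h (9.14%). In the last step the calls of Rangap1 and Kpna2 held without each of the 18 arrays. That of Ran did not without 21 h B (adjusted p = 0.0519), 21 h C (0.0629) or 30 h A (0.0534), that of Kpnb1 not without 21 h A (0.0503), 21 h B (0.0642), 30 h A (0.0519) or 30 h C (0.0866). That of Xpo1 did not without 21 h B (adjusted p = 0.121), 21 h C (0.131), 30 h A (0.152) or 30 h B (0.061), and that of Rcc1 held only without 3 h B, 7 h A, 7 h C, 14 h A or 21 h B (adjusted p up to 0.181 without the others). The count of calls was 3 without 21 h B, 3 without 21 h C and 2 without 30 h A. Rangap1 was also called from 14 h to 21 h without 21 h C (−0.84, adjusted p = 0.0341) or once 30 h B was left out (−0.68, adjusted p = 0.0493).

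Single replicates stood lowest in many of these genes. Replicate B was the lowest array in 6 of 9 genes before treatment (33% of all probe sets) and in 7 of 9 by 3 h (32.1%), and replicate A in 6 of 9 by 14 h (28.1%) and in 6 of 9 by 21 h (27.7%). The deviations of 14 h A and 21 h A from their group means correlated with r = 0.20 over all probe sets, the highest of 45 pairs of arrays with the same letter. Erythroid Alas2 read 2870 in 14 h A, 2370.3 in 14 h B and 1855 in 14 h C, and Cdk1 572, 829.7 and 899. In the same order Slc4a1, also erythroid, read 286.7, 393.2 and 177.2, and the progenitor marker Myb 139.1, 102.9 and 149.8. Arrays A, B and C of 21 h read 7116, 7005 and 7430 for Alas2 and 368, 432 and 482 for Cdk1. For Slc4a1 they read 1348, 3586 and 2985, and for Myb 39.7, 0.9 and 19.5, so the markers did not order the replicates alike. The part of this in the results was not tested. Without 14 h A, 4 of the 9 genes were called by 14 h, all of the 5 but Xpo1.

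Over the log2 values of the 18 arrays, 8 of the genes correlated with each other at r from 0.80 to 0.95, while Rangrf correlated with those 8 at r from 0.52 to 0.81. The arrays share the time course, so these values describe a common fall. Among 4605 genes with a mean signal of at least 50, those closest to Ran were Pola1 (r = 0.98), the primase-bound DNA polymerase alpha, Parp1 (r = 0.98) and Psat1 (r = 0.98). Closest to Rcc1 were Wdr43, Pum3 and Nop2 (r = 0.98, 0.97 and 0.97), and closest to Kpna2 were Rrm2, the ribonucleotide reductase subunit (r = 0.98), Fignl1 (r = 0.98) and Rpa1 (r = 0.97). Ranbp1 was closest to Dhx9, Psma3 and Hspe1 (each r = 0.98), Rangap1 to the replication helicase subunit Mcm7, Nudt1 and Topbp1 (each r = 0.97), and Kpnb1 to Tagln2, Set and Nop56 (each r = 0.97). Cse1l was closest to Gmnn, Ola1 and Prim1 (each r = 0.95) and Xpo1 to Trgv4, Asf1b and Sf3a3 (r = 0.95, 0.95 and 0.95). Rangrf came closest to Tgfb1 (r = 0.94), Macroh2a1 (r = 0.92) and Akt1 (r = 0.92).

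Other carriers moved both ways. Of 12 measured importins and transportins beyond those above (16 listed), 6 were called lower (13.8% of all probe sets) and 3 higher (12.8%) at 30 h, with a median of −0.43. Ipo5, which imports ribosomal proteins and histones, fell from 634 to 50.3 (−3.25, SE 0.18, adjusted p = 9.68e-11), Ipo7 from 107 to 31.6 (−1.35, adjusted p = 0.000166) and Ipo4 from 343 to 172 (−0.86, adjusted p = 0.0023). The Ipo4 mean was lower by 21 h than by 30 h, at 91 (−1.70 against 0 h, adjusted p = 2.3e-06). Higher were Tnpo2, a transportin, from 580 to 847 (0.53, SE 0.12, adjusted p = 0.00197) and the importin alpha Kpna6 from 83.2 to 141 (0.77, SE 0.25, adjusted p = 0.0256). The Kpna6 call was lost without quantile normalization (adjusted p = 0.063), with median scaling (adjusted p = 0.0657) and without 0 h A (adjusted p = 0.0616), 0 h B (adjusted p = 0.0856), 30 h A (adjusted p = 0.0748) or 30 h B (adjusted p = 0.0672).

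Of 3 measured exportins (5 listed), 1 was lower (13.8% of all probe sets) and 1 higher (12.8%). Xpo7, an exportin known for its part in nuclear condensation of red cell precursors, rose from 237 to 446 (0.95, SE 0.19, adjusted p = 0.000713), read by a probe set that may see related transcripts. Xpot, the exportin of transfer RNA, fell from 412 to 196 (−0.93, adjusted p = 0.00228), a call lost with the mean over its probe sets (−0.36, adjusted p = 0.365). Xpo6, the exportin of actin, stood at −0.26 (adjusted p = 0.129; called without 0 h A, −0.37, adjusted p = 0.0341). Of 5 other Ran-binding or regulating genes (10 listed), 1 was called lower (13.8% of all probe sets) and 0 higher (12.8%): Rcc2, a relative of Rcc1 at chromosomes, fell from 1426 to 220.2 (−2.57, SE 0.19, adjusted p = 2.8e-09). Rcbtb1 stood at −0.55 (adjusted p = 0.216), Ranbp9 at 0.16 (adjusted p = 0.771) and Ranbp10 at 0.80 (adjusted p = 0.0619; without 21 h A 0.80, adjusted p = 0.0314, without 21 h C 0.80, adjusted p = 0.0321, and without 30 h A 0.96, adjusted p = 0.0498).

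Of the pore, 14 of 30 listed nucleoporins were measured, and 10 of the 14 were called lower (13.8% of all probe sets) and 0 higher (12.8%) at 30 h, with a median of −1.04. Nup107, of the scaffold ring, fell from 600 to 148 (−1.84, SE 0.17, adjusted p = 9.06e-08), Nup85 of the same ring from 1078 to 143 (−2.88, SE 0.28, adjusted p = 1.4e-07), Nup62 of the central channel from 1210 to 479 (−1.31, SE 0.14) and Nup188 from 338 to 140 (−1.08, SE 0.15). Of 9 measured genes of mRNA export (16 listed), 5 were lower (13.8% of all probe sets) and 0 higher (12.8%), with a median of −0.77. They included the adaptor Alyref (1279 to 297.5, −1.99, SE 0.22), the helicase Ddx39b (2161 to 1035, −1.20, SE 0.14), Thoc3 (350.1 to 101, −1.53) and Nxt1, which is related to Nutf2 and pairs with the export receptor Nxf1 (364 to 196, −0.77, SE 0.15, adjusted p = 0.000435).

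Of 7 measured genes of the SUMO cycle (14 listed), which modifies Rangap1, 2 were lower (13.8% of all probe sets) and 0 higher (12.8%), with a median of −0.24: Sumo3 fell from 1894 to 931 (−1.14, SE 0.13, adjusted p = 1.04e-06) and the activating enzyme subunit Sae1 from 523 to 223 (−1.08, SE 0.19, adjusted p = 0.00014). Senp3 stood at −0.39 (adjusted p = 0.181; without 0 h A −0.61, adjusted p = 0.0334) and Pias1 at 0.49 (adjusted p = 0.154). Of 9 measured nuclear lamina genes (10 listed), 4 were lower (13.8% of all probe sets) and 3 higher (12.8%), with a median of −0.31. Banf1, which binds DNA at the reforming envelope, fell from 2338 to 522 (−2.19, SE 0.13, adjusted p = 2.43e-10). Sun2, an envelope protein that links to the cytoskeleton, rose from 153 to 1594 (3.18, SE 0.19, adjusted p = 1.58e-10), Lmna, lamin A, from 1393 to 7260.5 (2.26, SE 0.15) and Sun1 from 174 to 349 (1.03, SE 0.16). The Sun1 mean was higher by 21 h than by 30 h, at 585 (1.70 against 0 h, adjusted p = 1.6e-07).

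**Figure D4:**
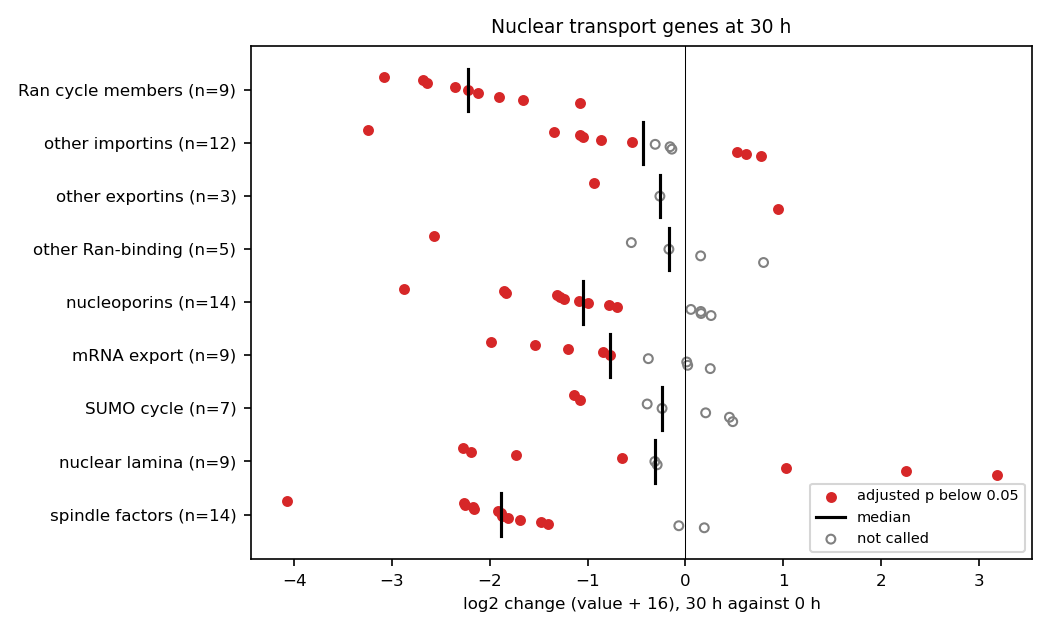
Log2 change (value plus 16) at 30 h against 0 h for the 9 genes and for each list of related genes, 1 point a gene, filled where the adjusted p was below 0.05, with a line at each median. The 9 genes all lie below 0 with a median of −2.22, nucleoporins have a median of −1.04, and importins and lamina genes lie on both sides.

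Genes of the spindle, which Ran-GTP guides, and of cell division were still at or above their untreated levels by 14 h in many cases. Of 14 measured spindle and division factors (18 listed), 6 were called higher (6.55% of all probe sets) and 0 lower (6.77%) by 14 h with a median of 0.52, and 12 were lower (13.8%) and 0 higher (12.8%) by 30 h with a median of −1.88. The 2 not called by 30 h were Nusap1 (−0.07, adjusted p = 0.916) and Numa1 (0.19, adjusted p = 0.582). Nusap1 was called higher by 14 h (1.43, adjusted p = 0.00182) and by 21 h (1.64, adjusted p = 0.000261), and Numa1 by 21 h (0.67, adjusted p = 0.0284). From 21 h to 30 h 13 of 14 were called lower (3.12%). Cdc20, an activator of the anaphase ligase, had means of 1423, 2013, 1592 and 307 over the untreated, 14 h, 21 h and 30 h arrays, and Plk1, a mitotic kinase, of 565, 958, 774 and 194. Top2a, which untangles chromosomes, had means of 380.5, 702, 513 and 68.8, and the mitotic kinase Cdk1 of 947, 767, 427 and 50.3. By 14 h Plk1 (0.77, adjusted p = 0.000536) and Top2a (0.88, adjusted p = 0.0119) were called higher while Cdc20 (0.43, adjusted p = 0.0927) and Cdk1 (−0.36, adjusted p = 0.556) were not called. At that time Rcc1, Rangrf, Ranbp1, Kpnb1 and Xpo1 were called lower (−1.62, −3.08, −1.08, −1.03 and −0.72). Ran, Rangap1, Kpna2 and Cse1l were not called (−0.43, −0.12, −0.16 and −0.24). Whether the courses of the lists and of the 9 genes differ was not tested.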

How the data were processed

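Per the labels, 18 RNA samples were hybridized to Affymetrix MG-U74Av2 arrays. The deposited measure was a linear signal intensity per probe set. The 2% trimmed means of the arrays lay between 150.09 and 150.12, which puts the deposited arrays on a common scale. How the authors summarised probes is not given in the sources used here. Of 12488 probe sets 66 controls were left out. A constant of 16 was added, the log2 taken and the arrays quantile normalized. limma 3.58.1 (R 4.3.3) was fitted to all 18 arrays with 1 mean per time and an intensity trend, leaving 12 residual degrees of freedom. p values were adjusted by Benjamini-Hochberg over 12422 probe sets. With 3 arrays against 3, an exact permutation could not go below 0.1. The code was tested on simulated data.

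Gene names came from the platform annotation (10833 probe sets with 1 symbol, 396 with several, 1193 with none). A gene was read by its brightest probe set with 1 symbol. All 9 genes are named. From each other list the 4 with the smallest F test p are named, plus up to 2 called against the list's main direction. In the spindle list the 2 not called at 30 h are named as well. Genes most alike were the 3 with the highest r. The genes and lists were chosen with earlier results of these data known. The number of arrays limits the precision. Alternatives were no quantile step, median scaling, other constants, the dim probe sets left out, no trend, array weights, the replicate letter as a block, the compared times alone, the mean over a gene's probe sets, and each array left out in turn.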

Additional observations from a re-analysis of the deposited data

How the results depend on the processing

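The 9 genes were called lower at 30 h under each of the 28 alternatives, and 0 at 3 h. With median scaling the counts called were 1 at 7 h against 0 h, 1 at 21 h against 14 h and 3 at 30 h against 21 h. Without the intensity trend 1 was called at 7 h. With the compared times alone the counts were 1 at 7 h against 0 h, 0 at 7 h against 3 h, 1 at 21 h against 14 h and 1 at 30 h against 21 h. With the mean over a gene's probe sets they were 1, 3 and 5 for 7, 14 and 21 h, and Kpnb1 turned to 0.012 at 7 h and 0.16 at 14 h, a mean that takes in its dim probe set, called higher at 14 h. Leaving out 1 array at a time gave from 1 to 2 at 7 h against 0 h, from 0 to 1 at 7 h against 3 h, from 1 to 2 at 14 h against 7 h and from 2 to 6 at 30 h against 21 h. The cause of the other changes was not tested. At 21 h 9 were called without quantile normalization and 9 with the dim probe sets left out, against 7, with Kpna2 and Cse1l added. The replicate letters were not taken as pairs in the main fit and entered only as an alternative. Of 45 same-letter pairs of arrays 3 correlated above 0.1 (up to 0.20, median 0.027). Of 90 pairs with different letters 0 did (up to 0.07, median −0.0078), so arrays of the same letter were slightly more alike. What the letters share was not tested. With the replicate block the counts at 7, 14, 21 and 30 h were 2, 5, 8 and 9: Kpna2 was called at 21 h (adjusted p = 0.0351), and Rcc1 was not from 21 h to 30 h (adjusted p = 0.0504). Of 896 values for 32 genes of the other lists at 30 h, an addition made after the data were seen, 15 changed call and 0 reversed. Most Rangrf signals from 14 h on lay below the array medians, which limits what can be measured there.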
